A study of Danio rerio with 4 samples.

Results

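Methylation was examined around a pair of zebrafish enhancers, one for sox5 and one for lmx1ba, which were chosen by their methylation level, as it is higher at 24 hours post-fertilization (hpf) than at 4 hpf in these same libraries. Members are the CpGs that lie within 100 kb of the bait positions used for these enhancers in a 4C-Seq experiment, a method that maps DNA contacts of a chosen bait, at chr4:16032800 for sox5 and chr5:5140600 for lmx1ba in Zv9 (danRer7). There were 3198 such CpGs at sox5 and 4075 at lmx1ba, together 7273 of the 24222160 CpGs on the nuclear chromosomes. The bait positions carry 6 significant digits and no assembly is written beside them, so they were taken as Zv9, the assembly of the methylation files.

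Whole-genome bisulfite sequencing was done on whole embryos of 2, 4, 8 and 24 hpf, with 1 library per stage and no treatment named in the labels. The sources used here give no strain or genotype and no number of embryos per library. Bisulfite converts unmethylated cytosine and leaves methylated cytosine, so that a read gives a methylated or an unmethylated call at every CpG it crosses, and a level is the percentage of methylated reads. Without replicates, and with loci chosen for their rise, all differences between stages given here are descriptions, and no test was made. The Wilson 95% intervals in parentheses cover counting error only and, as a read counts at each CpG it crosses, are too narrow for regions. Where no read was methylated, the level that the reads allow is given as 3 divided by their number. This limit is rough at few reads and differs from the Wilson limit.

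In vertebrate genomes most CpGs are methylated, and stretches with low methylation mark promoters and regulatory elements. Hypo-enhancers are enhancer candidates, marked by the histone modification H3K4me1, that have little methylation in the early embryo and often lie near genes for developmental transcription factors. The sox5 gene encodes a SoxD-family HMG-box protein that acts in cartilage, neural crest and neurons, and lmx1ba encodes a LIM-homeodomain protein of the midbrain-hindbrain boundary and of monoaminergic neurons, whose mouse relative Lmx1b also patterns the dorsal limb.

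The primers that define the baits are printed as they were given for the enhancer fragments that were probed. Only the sox5 reading primer was placed among the CpGs here. Capitals mark the CpGs, the only positions at which methylation was read.
sox5 reading primer: cataaCGccccaCGtggcagCGgcat
sox5 second primer: acaacagaatgccactttacCG
lmx1ba reading primer: gcaaaacctcccagcaaagagatc
lmx1ba second primer: ttgtgctgtggcagaggttc
The sox5 reading primer is 26 bases long and holds 3 CpGs and the second primer ends in 1, whereas the lmx1ba reading primer holds 0 and ends in the gatc that the restriction enzyme DpnII cuts. The spacings of 7 and 8 bases between the CpGs of the sox5 reading primer match CpGs listed at 16032902, 16032909 and 16032917 on chromosome 4, which would put the primer at chr4:16032897-16032922 on the plus strand, 97 bp beyond the rounded bait position. Such spacings occur at 4 places within 100 kb of the bait, with the next 74996 bp away, and at 41160 places in the genome. As no Zv9 sequence was used, this placement rests on spacing alone.

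Depth differed between the libraries, and the nuclear genome had a mean of 28.6, 20.9, 8.04 and 12.3 reads per CpG in order of stage. Around sox5 the mean was 40.3, 28.6, 11.8 and 16.5 reads per CpG in the same order, and around lmx1ba 24.5, 20, 7.22 and 11.6. Mitochondrial CpGs, which give an upper limit on incomplete conversion, were methylated at 0.853%, 0.70%, 0.436% and 0.439%, so the limit was lower at 24 hpf than at 4 hpf. Low stretches were taken as runs of CpGs in the 4 hpf library whose level over 3 neighbouring covered CpGs was under 25%, broken at gaps over 1 kb, with at least 6 covered CpGs and a pooled level under 25%. CpGs inside all such stretches were covered 0.831, 1.07, 0.688 and 0.580 times as deeply as other CpGs at 2, 4, 8 and 24 hpf.

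Both baits lay inside a low stretch, and both of these stretches were higher at 24 hpf than at any earlier stage. The stretch with the sox5 bait spans 605 bp at chr4:16032647-16033251 and has 21 CpGs. At 2 hpf 10 of 416 reads were methylated, or 2.40% (1.31% to 4.37%), and at 4 hpf 7 of 505, or 1.39% (0.673% to 2.83%). The level was 6.90% at 8 hpf, with 8 of 116 reads (3.54% to 13.0%), and 15.9% at 24 hpf, with 33 of 208 reads (11.5% to 21.4%). The intervals of 24 hpf and of 2 and 4 hpf do not overlap, while that of 8 hpf reaches into the interval of 24 hpf. As the locus was chosen for its rise from 4 to 24 hpf, this separation is no test. From 4 to 24 hpf the level gained 14.5 points (9.90 to 20.1).

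The stretch with the lmx1ba bait spans 1275 bp at chr5:5140188-5141462 and has 34 CpGs. At 2 hpf 25 of 944 reads were methylated, or 2.65% (1.80% to 3.88%), at 4 hpf 8 of 515, or 1.55% (0.789% to 3.03%), and at 8 hpf 4 of 193, or 2.07% (0.809% to 5.21%). The level reached 15.1% at 24 hpf, with 58 of 385 reads (11.8% to 19.0%). Here the intervals of the 3 earlier stages overlap each other and that of 24 hpf lies above them, again at a locus chosen for its rise. The gain from 4 to 24 hpf was 13.5 points (9.96 to 17.5), close in size to that at sox5. The stretches differed in their reads at 24 hpf, where coverage relative to the CpGs of the same locus outside low stretches was 0.578 at sox5 and 0.950 at lmx1ba, against 0.838 and 0.749 at 4 hpf. The share of these coverage differences in the levels was not tested.

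**Figure D1:**
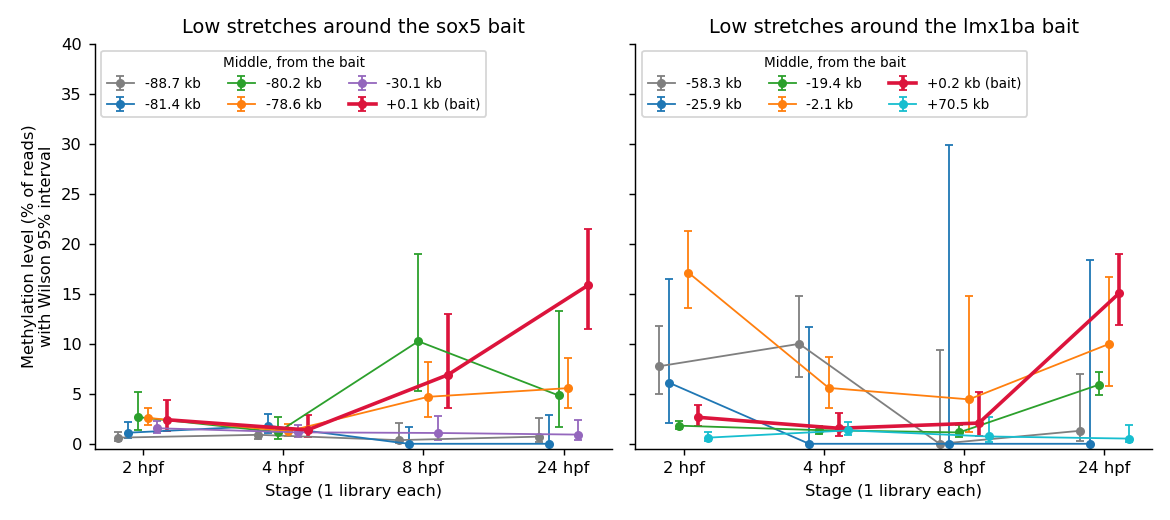
Methylation level (percent of reads, with Wilson 95% intervals) of each low stretch within 100 kb of the sox5 bait (left) and the lmx1ba bait (right) at 2, 4, 8 and 24 hpf, 1 library per stage. Red lines are the stretches that hold the bait, which reach 15.9% and 15.1% at 24 hpf, and the other lines are named by the distance of their middle from the bait.

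Most low stretches of the genome changed by less than 10 points between the 4 and 24 hpf libraries, though a part of them rose. Of 30701 stretches, 28726 had at least 20 reads at both 4 and 24 hpf, and their median change was 1.26 points, with quartiles of -0.00395 and 5.44 points. A rise, defined as a gain of at least 10 points from 4 to 24 hpf, was found in 16.6% of them and a fall of that size in 0.964%. Stretches picked for a low level at 4 hpf can gain more than they can lose, and the shares are not to be read as a direction of the genome. Among the 23071 stretches under 5% at 4 hpf, 9.04% rose. A gain as large as that at the sox5 bait was found in 12.7% of all stretches and in 5.91% of those under 5% at 4 hpf, as both bait stretches were. For the lmx1ba bait these shares were 13.4% and 6.41%. The bait stretches thus lie in the upper tail of the distribution, where they were picked, and are not alone there.

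**Figure D2:**
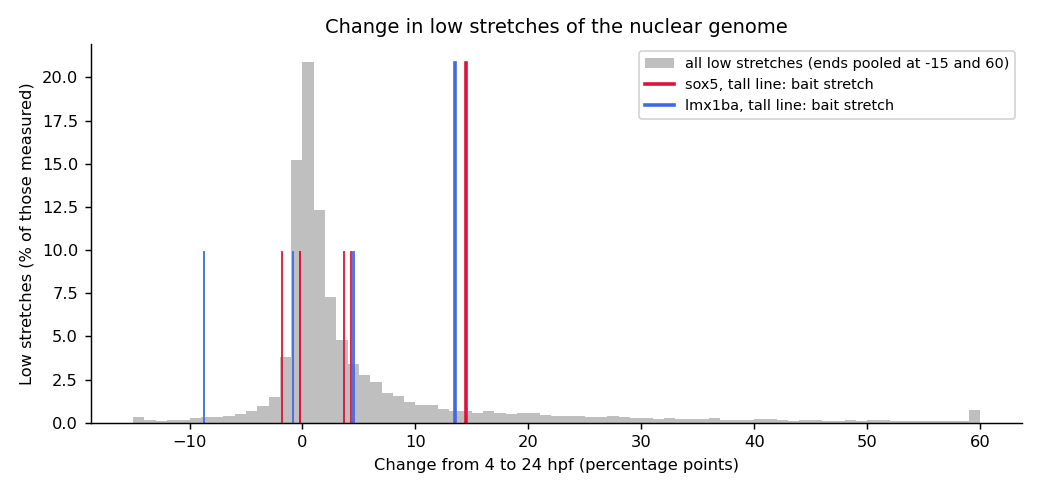
Change in level from 4 to 24 hpf (percentage points) of all 28726 measured low stretches of the genome (grey, percent of stretches per bin, with values beyond -15 and 60 pooled in the end bins) and of those near the sox5 (red) and lmx1ba (blue) baits. The tall lines are the bait stretches at 14.5 and 13.5 points, to the right of all others near the same baits.

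Within the sox5 stretch the gain was spread unevenly along the sequence. The first 7 CpGs, up to 16032734, had levels of 2.80%, 2.58%, 13.2% and 7.5% (3.48% to 15.4%, 80 reads) in order of stage. The middle 7 CpGs, from 16032746 to 16032909, had 2.97%, 0 of 158 reads, 0 of 18 reads and 33.3% (22.5% to 46.3%, 57 reads) in the same order, where 0 of 158 reads allows up to 1.90% and 0 of 18 reads allows up to 16.7%. The last 7 CpGs had 0.990%, 1.56%, 2.22% and 11.3% (5.82% to 20.7%, 71 reads). At 24 hpf the middle CpGs had a higher pooled level than those on either side, whose intervals reach up to 15.4% and 20.7%. However, the middle CpGs from 16032746 to 16032759 had 5 or 6 reads each, and 16032902 and 16032909 had 11 and 12. As close CpGs share molecules, a few molecules could carry this level, and the order of the parts was not tested.

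The methylated calls of the sox5 stretch at 8 hpf lay mostly at its first CpGs. Of the 8 methylated calls at 8 hpf, 7 fell on the first 6 CpGs, which lie within 38 bp and were each covered by at most 11 reads, and only 1 of 63 calls elsewhere was methylated. A gain of at least 5 points from 4 to 8 hpf was found in 12.3% of all stretches and in 2 of the 11 measured near the baits, both at sox5. At 24 hpf the same 6 CpGs held 4 of 77 methylated calls and the other 15 CpGs held 29 of 131. Some CpGs had methylated reads at both stages, as 16032684 with 1 of 5 at 8 hpf and 2 of 5 at 24 hpf. Neighbouring CpGs so close together are read by the same molecules, and the files do not link the calls of a molecule, so a few molecules could carry the value at 8 hpf.

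The CpG with the largest gain in the sox5 stretch was 16032754, 46 bp before the bait position. Its methylated reads numbered 1 of 14, 0 of 15, 0 of 2 and 4 of 5 in order of stage. The next was 16032909, with 0 of 14, 0 of 32, 0 of 3 and 5 of 12. This CpG is the middle CpG of the sox5 reading primer by the spacing match. Of its neighbours in the primer, 16032902 had 0 of 13, 0 of 36, 0 of 3 and 3 of 11 methylated reads, and 16032917 had 0 of 15, 0 of 31, 0 of 3 and 0 of 10. Thus at 24 hpf the CpGs matched to the bait primer by spacing had 27.3%, 41.7% and no methylated read, with overlapping intervals at these depths. Then followed 16032746 with 2 of 5 at 24 hpf, 16032684 with 2 of 5 and 16032752 with 2 of 6, against 0 of 15, 1 of 17 and 0 of 15 at 4 hpf.

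In the lmx1ba stretch the gain was more even between the first, middle and last parts. The first 12 CpGs went from 4.02% at 4 hpf to 17.6% at 24 hpf (11.1% to 26.7%, 91 reads), the middle 11 from 0.543% to 15.7% (11.1% to 21.8%, 178 reads) and the last 11 from 0 of 157 reads, which allows up to 1.91%, to 12.1% (7.33% to 19.2%, 116 reads). The intervals of the parts overlap at 24 hpf. However, the 5 CpGs from 5141234 to 5141462 at the far end had 0 of 30 methylated reads at 24 hpf, which allows up to 10%, while 23 of the 25 CpGs from 5140459 to 5140971 before them had at least 1.

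The CpG with the largest gain at lmx1ba was 5140618, 18 bp after the bait position, with 0 of 27, 0 of 19, 0 of 3 and 4 of 8 methylated reads at 2, 4, 8 and 24 hpf. CpG 5140770 was among the deepest, with 0 of 38, 0 of 17, 0 of 10 and 7 of 19, and CpG 5140657 had 1 of 40, 0 of 17, 0 of 6 and 6 of 19. At these CpGs the gain was only seen at 24 hpf, but few reads cover them at 8 hpf. The Wilson upper limits at 8 hpf are 56.1%, 27.8% and 39.0% in the order given, so an earlier gain could have been missed. CpG 5140632 went from 0 of 19 at 4 hpf to 5 of 13 at 24 hpf and CpG 5140461 from 1 of 10 to 3 of 6.

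**Figure D3:**
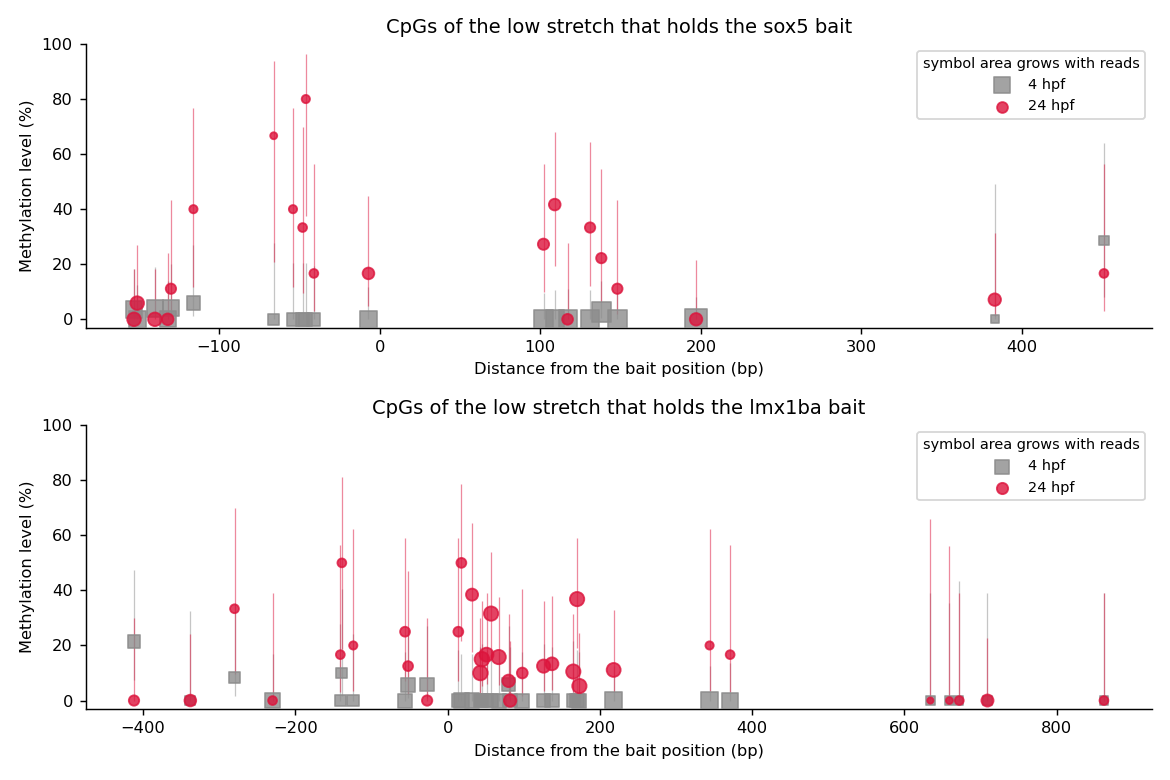
Methylation level (percent of reads) of each CpG of the stretch with the sox5 bait (top) and with the lmx1ba bait (bottom) at 4 hpf (grey squares) and 24 hpf (red circles), against distance from the bait position in bp. Lines are Wilson 95% intervals and symbol area grows with the reads. At sox5 the first 5 CpGs stay at or below 11.1% at 24 hpf, and at lmx1ba the gain extends over most CpGs up to 371 bp after the bait.

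Over both bait stretches, 51 of 55 CpGs had at least 5 reads at 4 and 24 hpf, and 15 of them, or 29.4%, gained at least 25 points, while 0 lost as much. Over all low stretches of the genome 4.84% of 632713 CpGs did so, and 0.259% lost as much. At sox5 it was 7 of 19 CpGs and at lmx1ba 8 of 32. Of the 51 CpGs, 39 had no methylated read at 4 hpf and 13 had none at 24 hpf, whereas 78.6% of CpGs in all low stretches had none at 24 hpf. These CpGs belong to stretches that were chosen for their gain, so their counts say how the gain is spread and not whether it is unusual.

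The 5 CpGs of largest gain held 15 of 33 methylated reads of the sox5 stretch at 24 hpf, or 45.5%, with 15.9% of its reads. In the lmx1ba stretch the 5 CpGs held 25 of 58, or 43.1%, with 16.9% of the reads. Without these CpGs the level at 24 hpf was 10.3% at sox5 and 10.3% at lmx1ba, and the gains were 8.83 and 8.70 points. Leaving out the highest CpGs lowers the gain by construction, and what remains is carried by many CpGs with few methylated reads each. No CpG of either stretch with at least 5 reads exceeded 80% at 24 hpf.

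Beside the stretches, levels of single CpGs ranged from no methylated read to fully methylated. The nearest CpG with at least 5 reads at every stage before the sox5 stretch, 709 bp outside it, had 97.1%, 66.7%, 100% and 100% in order of stage. After the sox5 stretch, CpG 16033452 had no methylated read at any stage, at 23, 11, 12 and 7 reads, and the next at 16033659 had 78.6%, 88.2%, 73.7% and 85%. Before the lmx1ba stretch, CpG 5140007 had intermediate levels of 53.3%, 57.1%, 41.7% and 60%, and after it CpG 5141670 had no methylated read, at 50, 14, 17 and 28 reads, followed by 85%, 85.7%, 92.9% and 87.5% at 5141746. A CpG without methylated reads thus lay just outside the called end of each stretch, where the reads at 24 hpf allow up to 42.9% at sox5 and up to 10.7% at lmx1ba.

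Low stretches were also called by the same rule in each library. As the rule leaves out runs of fewer than 6 covered CpGs, a CpG outside a called stretch can still be low. At 2 and 8 hpf, 20 of the 21 CpGs of the sox5 stretch fell in a called stretch, but at 24 hpf only 6 did. The first 5 CpGs of the sox5 stretch, each at or below 11.1% at 24 hpf, were not among these 6. At lmx1ba it was 33 of 34 CpGs at 2 hpf, 34 at 8 hpf and 21 at 24 hpf. No stretch called at 2, 8 or 24 hpf within 100 kb of either bait lacked an overlap with one of 4 hpf, so no further low stretch was seen.

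Other low stretches near the baits gained less. Together 12 stretches of 18190 bp and 536 CpGs lay within 100 kb of the baits, 6 at each. Of the 11 with at least 20 reads at 4 and 24 hpf, 2 rose, or 18.2% beside 16.6% of all stretches, and both were the bait stretches, while 0 fell. None of the 11 gained 25 points, which 7.31% of all stretches did. The median change of the 11 was 3.68 points, beside 1.26 points over all measured stretches, but the 11 include the bait stretches, chosen for their gain. Of the others, some were lower at 24 hpf, by -8.70, -1.80, -0.821, -0.226 and -0.185 points. The rest gained 3.68, 4.32, 4.41 and 4.56 points. A level under 2% at 24 hpf was found in 5 of the 11 and in 39.4% of all. Of the CpGs in the other stretches, 7 of 259, or 2.70%, gained at least 25 points, beside 4.84% of CpGs in all low stretches. It was 0 of 92 near sox5 and 7 of 167, or 4.19%, near lmx1ba, the latter close to the share of all low stretches.

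At sox5 all other low stretches lay before the bait. The longest, at chr4:15943523-15944742 with 46 CpGs, was 88.1 kb away and had 0.616%, 0.899%, 0.368% and 0.714% in order of stage (at 24 hpf 0.196% to 2.57%, 280 reads). The next in length, at chr4:15950816-15951984 with 40 CpGs, had 1.11%, 1.80%, 0 of 223 reads, which allows up to 1.35%, and 0 of 129 reads, which allows up to 2.33%. The stretch nearest to the bait, at chr4:16002265-16003203, 29.6 kb away, had 1.56%, 1.15%, 1.08% and 0.920% (0.358% to 2.34%, 435 reads). These stretches remained low at all stages. Their upper limits at 24 hpf lie far below the lower limit of 11.5% at the bait stretch, which was chosen for its rise. Their coverage at 24 hpf relative to CpGs outside low stretches was 0.355, 0.188 and 0.604 in the order given, against 0.578 at the bait stretch. In the second stretch, the CpGs from 15951199 to 15951360 had at most 1 read each. Its 129 reads may come from few molecules, and its limit is too narrow.

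A pair of neighbouring stretches about 80 kb before the sox5 bait had higher pooled values in the later libraries. These rested mainly on an edge CpG in the longer stretch and on few reads in the shorter. The stretch at chr4:15953736-15954655, with 46 CpGs, had 2.60%, 1.25%, 4.70% (2.64% to 8.22%) and 5.57% (3.60% to 8.54%) at 2, 4, 8 and 24 hpf, a gain of 4.32 points (2.22 to 7.32) from 4 hpf over all its CpGs. However, its first CpG, 15953736, held 13 of the 19 methylated reads at 24 hpf, and its own level was 45.2%, 25.9%, 39.1% and 37.1% in order of stage, highest at 2 hpf. Without this edge CpG the stretch had 11 of 1411 methylated reads at 4 hpf and 6 of 306 at 24 hpf, or 0.780% (0.436% to 1.39%) and 2.0% (0.902% to 4.21%), and its gain was 1.18 points. The stretch at chr4:15952381-15952895, with 17 CpGs, had 2.68%, 1.16%, 10.3% (5.29% to 19.0%, 78 reads) and 4.84% (1.66% to 13.3%, 62 reads), with no order between the last 2 stages beyond their intervals.

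At lmx1ba the longest stretch was also the longest near either bait. It spans 9438 bp at chr5:5116480-5125917, holds 207 CpGs and ends 14.7 kb before the bait. Its level was 1.81%, 1.37% (1.03% to 1.82%, 3369 reads), 1.14% and 5.93% (4.85% to 7.22%, 1535 reads) in order of stage, a gain of 4.56 points (3.40 to 5.90) that does not count as a rise. Its relative coverage was 0.805 at 4 hpf and 0.622 at 24 hpf.

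The gain in this long stretch was local. In bins of 500 bp, the first 9 bins had between 0% and 3.64% at 24 hpf. Their Wilson upper limits ran from 3.08% (121 reads) to 20.4% (15 reads). Single bins with few reads thus do not exclude levels such as those that follow. The next 5 bins, 4.5 to 7 kb from the first CpG, had 12.1% (58 reads), 6.19% (97 reads), 17.6% (119 reads), 20% (85 reads) and 9.30% (86 reads), against 0% to 6.67% at 4 hpf. After 4 bins of 0% to 5.69% the last bin had 15.4% (9.70% to 23.5%, 104 reads), against 2.26% at 4 hpf. All 16 methylated reads of the last bin at 24 hpf were at its last CpG, 5125917, and its other 9 CpGs had 0 of 75, which allows up to 4%. All 7 CpGs outside the bait stretches that gained at least 25 points were in this stretch, 6 of them between 5121369 and 5122969 and the other was that last CpG, with 5 of 12, 0 of 11, 2 of 8 and 16 of 29 methylated reads at 2, 4, 8 and 24 hpf. Called at 24 hpf by the same rule, the stretch was split into 4, which share 185 of its 207 CpGs. How often other low stretches of the genome were split in this way was not counted.

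**Figure D4:**
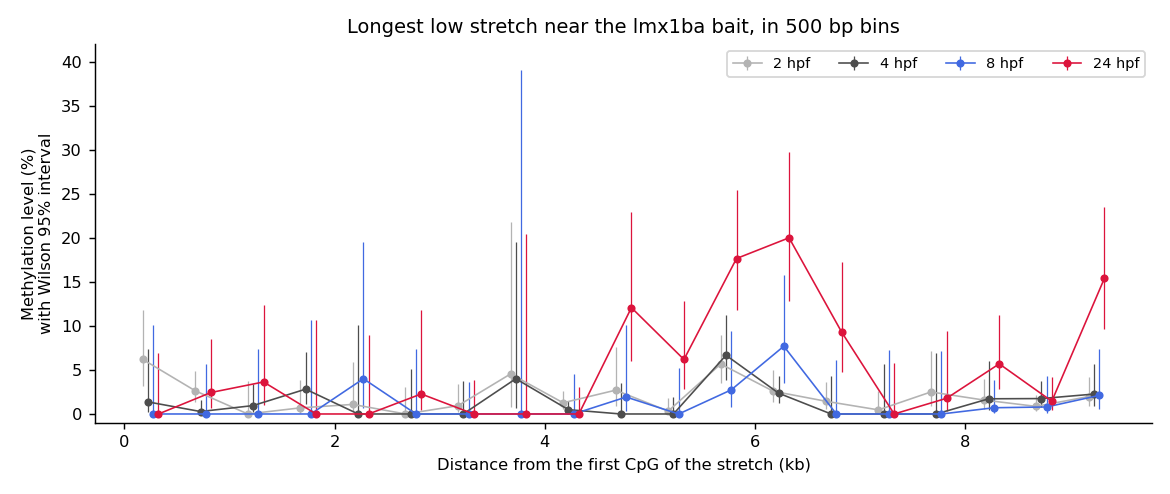
Methylation level (percent of reads, with Wilson 95% intervals) of the 9438 bp low stretch before the lmx1ba bait in bins of 500 bp at 2, 4, 8 and 24 hpf, against distance from its first CpG in kb. At 24 hpf the bins between 4.5 and 7 kb reach up to 20% and the last bin 15.4%, all of it at its last CpG. The first 9 bins are at or below 3.64%, with 15 to 121 reads each and upper limits of up to 20.4%.

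The other stretches near lmx1ba were short or unchanged. The stretch at chr5:5210419-5211825, with 54 CpGs, had 0.614%, 1.34%, 0.733% and 0.519% (0.143% to 1.87%, 385 reads) and was the only one after the bait. A stretch of 10 CpGs at chr5:5138404-5138611, 2.0 kb before the bait, had 17.1% (13.6% to 21.3%, 368 reads), 5.59% (3.56% to 8.66%, 322 reads), 4.44% (1.23% to 14.8%, 45 reads) and 10% (5.81% to 16.7%, 120 reads) in order of stage, so that its highest level was at 2 hpf. A stretch of 13 CpGs at chr5:5082110-5082522 had 7.76%, 10%, 0 of 37 reads, which allows up to 8.11%, and 1.30% (0.230% to 7.0%, 77 reads), the lowest change of all at -8.70 points. The stretch of 6 CpGs at chr5:5114672-5114752 had 3 of 49 methylated reads at 2 hpf and 0 of 29, 0 of 9 and 0 of 17 later, too few at 24 hpf to be counted.

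The other 4 baits of the same primer set lay in low stretches too, and 0 of these 4 rose. Of all stretches under 5% at 4 hpf, as these 4 were, 9.04% rose, and 0 of 4 is near that share. The stretch at nfixb had 4.87%, 1.39%, 0.866% and 3.92% at 2, 4, 8 and 24 hpf. The meis1b bait stretch had 3.43%, 0.904%, 0.822% and 1.77%, and that of barx1 had 1.04%, 1.19%, 0 of 201 reads, which allows up to 1.49%, and 0.755%. At meis2a the levels were 3.78%, 1.25%, 4.68% and 6.35% (4.11% to 9.71%), a gain of 5.11 points. At 24 hpf the intervals of all 4 lie below those of the sox5 and lmx1ba bait stretches, but sox5 and lmx1ba were set apart from them for this difference. Of all measured stretches within 100 kb, 1 of 5 rose at meis1b, 0 of 3 at nfixb, 0 of 5 at barx1 and 0 of 3 at meis2a.

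In windows of 1 kb the loci as a whole did not gain methylation. Over all CpGs within 100 kb of the sox5 bait the level was 89.7%, 88.4%, 90.9% and 87.8% at 2, 4, 8 and 24 hpf, and at lmx1ba it was 83.1%, 83.3%, 83.9% and 83.0%. With at least 20 reads at both stages, 4 of 201 windows at sox5, or 1.99%, were at least 10 points higher at 24 than at 4 hpf and 21, or 10.4%, were at least 10 points lower. At lmx1ba 6 of 196, or 3.06%, were higher and 13, or 6.63%, lower. Over the genome 3.04% of 1253045 windows were higher and 8.55% lower, so both loci lie near the background. Among windows under 25% at 4 hpf, 2 of 9 at sox5 and 2 of 14 at lmx1ba were higher, beside 26.5% of such windows in the genome, and 0 and 1 were lower, beside 0.921%. Among windows over 75%, 0 of 187 and 1 of 166 were higher, beside 0.566%, and 21 and 10 were lower, beside 8.38%.

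**Figure D5:**
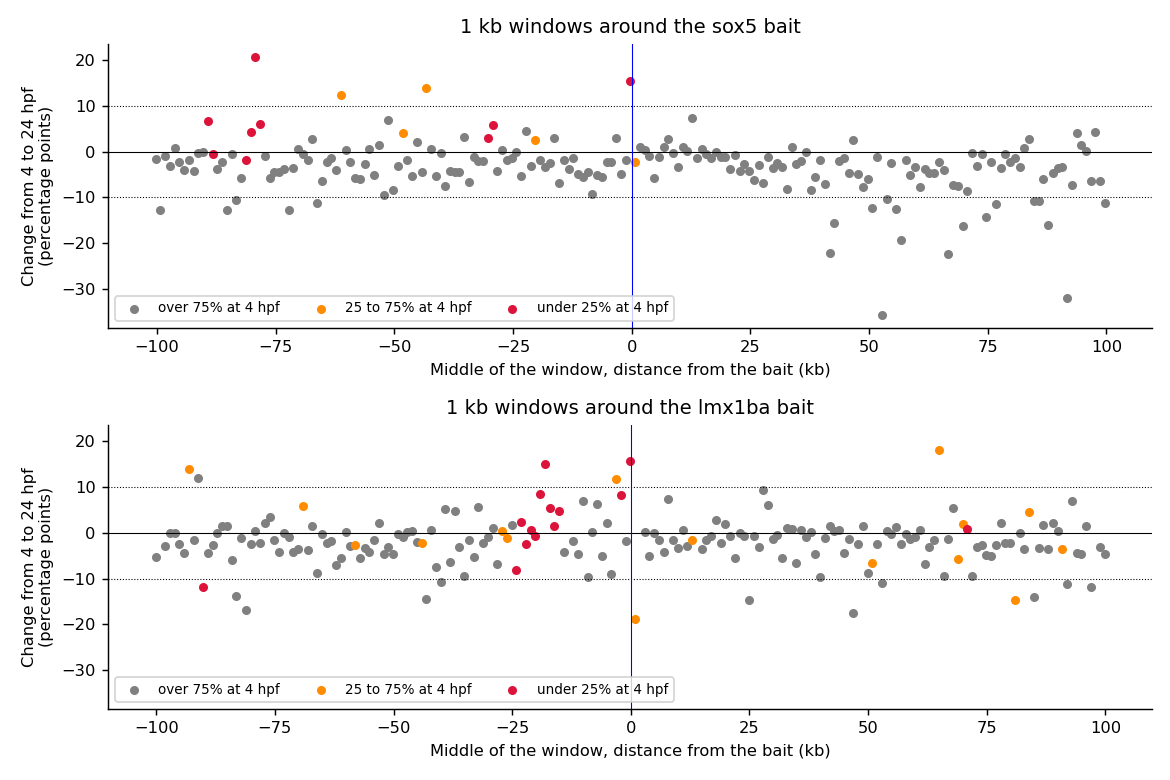
Change in level from 4 to 24 hpf (percentage points) of each measured 1 kb window against the distance of its middle from the sox5 bait (top) and the lmx1ba bait (bottom) in kb, coloured by its level at 4 hpf. Dotted lines mark 10 points up and down. The bait window is the highest point near 0 in both panels, and 16 of the 21 windows that fell at sox5 lie 41.7 to 99.7 kb after the bait.

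The windows with the largest gains included both bait windows. At sox5 these were chr4:15953000-15953999, 79.3 kb before the bait, with 19.0%, 11.8%, 30.7% and 32.5% at 2, 4, 8 and 24 hpf, the bait window chr4:16032000-16032999 with 2.58%, 1.01%, 6.54% and 16.5%, and chr4:15989000-15989999 with 82.8%, 73.1%, 84.5% and 86.9%. In the first, 1 of 17 measured CpGs gained at least 25 points and 5 gained at least 10 points, while 1 lost at least 10 points. Its 14 CpGs in the stretch at chr4:15953736-15954655 gave 556 of its 659 reads at 4 hpf but 147 of 255 at 24 hpf. They had 1.62% and 11.6% at these stages, with 13 of 17 methylated reads at 24 hpf on the edge CpG 15953736. The other 8 CpGs of the window had 67.0% and 61.1%. The share of the mix of CpGs read in the pooled gain was not tested. The last window was lower at 4 hpf than at the other stages. At lmx1ba the bait window chr5:5140000-5140999 had 5.05%, 2.44%, 4.57% and 18.1%, with 8 of 30 CpGs gaining at least 25 points. The window chr5:5122000-5122999, in the long stretch, had 4.05%, 3.65%, 5.30% and 18.6%, with 4 of 16 measured CpGs gaining as much. The largest gain at lmx1ba by pooled reads, 89.4%, 65.4%, 92.4% and 83.5% at chr5:5205000-5205999, was not seen in single CpGs, as only 3 of its 27 CpGs had at least 5 reads at both stages and 0 of them were higher.

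Windows that lost methylation at sox5 lay mainly after the bait. Of 100 measured windows after it 16 fell, and of 101 before it 5 fell, beside the 8.55% of the genome. The 16 lay 41.7 to 99.7 kb from the bait and had median levels of 92.6%, 94.1%, 92.0% and 78.0% in order of stage, with 1 of them already at least 10 points lower at 8 hpf. At lmx1ba 5 of 99 windows before the bait fell and 8 of 97 after it. Around the other baits, the share of windows that fell over both sides ran from 2% at barx1 to 14.1% at meis1b. The split by side was not among the planned comparisons. Neighbouring windows are not independent of each other, and no test of the difference between the sides was made.

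The window with the largest loss, chr4:16085000-16085999, had 96.9%, 96.5%, 100% and 60.8% (53.7% to 67.5%, 189 reads) at 2, 4, 8 and 24 hpf. In it 10 of 15 measured CpGs lost at least 25 points, as CpG 16085804 with 36 of 39 methylated reads at 4 hpf and 0 of 5 at 24 hpf. It was followed by chr4:16124000-16124999 with 84.7%, 82.3%, 92.6% and 50.4% (44.2% to 56.5%, 250 reads), where 11 of 23 CpGs lost as much, and chr4:16099000-16099999 with 92.0%, 92.5%, 89.8% and 70.2% (61.9% to 77.4%, 131 reads), where 4 of 12 did. These losses by 24 hpf were larger than the gain at the bait, and a loss of 25 points or more was found in 0.522% of all windows and in 2 of the 201 at sox5.

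At lmx1ba the largest losses rested on fewer CpGs. The window just after the bait window, chr5:5141000-5141999, had 34.8%, 42.1%, 36.4% and 23.2%, but of its 6 measured CpGs 1 was lower and 1 higher at 24 hpf, and the unmethylated CpG 5141670 held 28 of its 82 reads at 24 hpf against 14 of 95 at 4 hpf. The window chr5:5187000-5187999 had 80.6%, 93.5%, 50% and 76.0% at 12 to 31 reads, with 0 of its CpGs measured, and chr5:5059000-5059999 had 100%, 99.1%, 96.4% and 82.1%, with 1 of 4 measured CpGs losing at least 25 points. None of the windows at lmx1ba lost 25 points or more.

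Which gene lies at each low stretch or window could not be read from the files, as they list CpGs only. In the order of genes of the assembly GRCz12tu, sox5 lies between etnk1, an ethanolamine kinase gene, and dnai7, and lmx1ba lies between zbtb43, a zinc finger gene, and mvb12ba. This order was used for names only and places none of the stretches.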

How the data were processed

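The authors extracted DNA from timed zebrafish embryos at 2, 4, 8 and 24 hpf, sequenced it after bisulfite treatment, with Zv9 as the reference for mapping, and deposited the coverage of each CpG and the methylated fraction of its reads. The deposited coverage counts reads over both strands of a CpG and is not normalized. How reads were aligned and whether duplicates were removed is not given in the sources used here. Methylated reads were taken as fraction times coverage, which gave a whole number within 0.00124 reads at every CpG. All 4 files list the same CpGs, and depths are given with the results. Levels are methylated reads over all reads of a CpG, window or stretch. Single CpGs needed at least 5 reads and windows and stretches at least 20 reads at 4 and 24 hpf. Thresholds were 10 points for windows and stretches and 25 points for CpGs. With 1 library per stage no test was made.

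The members, the thresholds and the lists were chosen with earlier results of these data known. Named were the bait stretches, the 2 longest other stretches per bait and any other that changed by 10 points, the 5 CpGs of largest gain per bait stretch and the 3 windows of largest gain and of largest loss per bait. The remaining stretches, the bins of the longest stretch, its 7 CpGs and the edge CpG 15953736 were named after their values had been seen, so that every stretch is accounted for. Primer sequences are those of the 4C-Seq primer table. The stretch caller was tested on simulated data. Promoters and lists of related genes, which need a promoter table or a Zv9 annotation, were not analysed here. Alternatives were another library, window or limit for the calls, other minimums of reads, thinning to the depth of 8 hpf, other windows and thresholds. Python 3.11.15, numpy 2.4.6, pandas 2.3.3 and matplotlib 3.10.9 were used.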

Additional observations from a re-analysis of the deposited data

How the results depend on the processing

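The gains at the bait stretches were positive under all alternatives tried, from 8.83 to 17.7 points at sox5 and from 8.70 to 14.7 points at lmx1ba. The lowest values, 8.83 at sox5 and 8.70 at lmx1ba, were those without the 5 CpGs of largest gain, an alternative added after seeing the data. With stretch ends called at 2 hpf the gains were 15.7 and 14.4 points, which is no independent support, as the loci were still chosen by their levels at 4 and 24 hpf. Of 80 values under alternatives, 61 moved little, 19 moved and 0 reversed. Only changes in level could be labelled reversed, and the counts and shares, which make up most of the 80, could not.

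The median change of 3.68 points over the stretches near the baits, the bait stretches among them, moved under some alternatives. It was 1.32 with stretches called at 2 hpf, 0.311 without CpGs over 3 times the median coverage and 1.31 with means of fractions. Thinned to the depth of 8 hpf, 4 of 12 stretches rose, or 33.3%, beside 16.3% of all 27202 stretches measured after the same thinning. The further ones were the 10 CpGs 2.0 kb before the lmx1ba bait, at 10.5 points, and a stretch joined from chr4:15950620 to 15952895 with more CpGs at its ends and between, at 10.8 points. At 25 points 0% of the 11 stretches near the baits and 7.31% of all stretches rose. Among stretches under 5% at 4 hpf, also added after seeing the data, 9.04% of all and 22.2% of the 9 near the baits rose by at least 10 points. Those that rose near the baits were the bait stretches, so the higher share follows from their choice. Also added were the stretch at chr4:15953736 without its first CpG, whose gain of 4.32 points became 1.18, and the longest stretch near lmx1ba without its last CpG, at 3.61 points. At 50 points 3.92% of the CpGs in the bait stretches and 1.47% of those in all low stretches gained as much. Windows of 2 kb gave 4.95% rising and 6.93% falling at sox5, 0% falling before the sox5 bait and 1.98% falling at lmx1ba, and windows of 500 bp gave 4.90% rising and 11.5% falling at lmx1ba.

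The values at 8 hpf are limited by depth, with a median of 4 reads per CpG in the sox5 bait stretch and 6 in the lmx1ba bait stretch. With 1 library per stage there was no replicate to leave out. No paired analysis was possible because each stage has 1 library. The planned promoters placed by CpG spacing were not run, as no promoter table was used here. Fewer reads kept from unmethylated molecules at 24 hpf and more methylated molecules cannot be told apart in these levels.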
